A study of Mus musculus with 12 samples.

Results

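The 10 genes described here are ligands and receptors of the transforming growth factor beta (TGF-beta) family, measured in the hearts of control mice and of mice carrying mutant IDH2, an isocitrate dehydrogenase of mitochondria. They are the ligand genes Tgfb1, Tgfb2, Tgfb3, Inhba, Inhbb, Mstn and Bmp4 and the receptor genes Tgfbr1, Tgfbr2 and Tgfbr3. A gene entered by its symbol: a probe set had to carry that symbol and no other in the platform annotation, and where a gene had several probe sets the brightest on average was used. All 10 were found, each with 1 probe set, among 19937 genes measured.

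The study compared 12 Affymetrix arrays of heart RNA, 4 from control mice, 4 from mice with IDH2 R140Q and 4 from mice with IDH2 R172K. Both mutants are known to make D-2-hydroxyglutarate, and the series concerns heart muscle disease in such mice. Mice of all 3 groups had mixed C57BL/6, 129/sv and Balb/c ancestry. For the mutant mice the treatment was 2 mg of 4-hydroxytamoxifen (4-OHT) over 3 days, begun when they were 5 weeks old. Such treatment usually serves to switch on an inducible Cre recombinase. The sources used here do not say what the control mice were given, what their genotype was, what drives the mutant allele, or the sex of the mice and their age at dissection. An effect of the drug and an effect of the mutation cannot be told apart in any comparison with control. The arrays are labelled as replicates without a word on whether they are different animals, and the p-values reflect only how far these samples spread, which may be technical.

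TGF-beta family ligands are secreted dimers that bind pairs of type I and type II serine/threonine kinase receptors at the cell surface, and the activated receptors phosphorylate SMAD proteins, which enter the nucleus and regulate transcription. TGF-beta itself is secreted in a latent complex and must be released before it can signal. In the heart the TGF-beta branch is known for driving fibroblasts to make extracellular matrix, while bone morphogenetic proteins, activins and myostatin use related receptors with other roles in growth and development.

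Array medians lay between 74.8 and 78.0 intensity units. The tissue label was set against its markers: the mean log2 intensity of 8 cardiomyocyte markers lay between 12.82 and 13.38 on every array. Of 8 lung markers, the mean reached 7.96 on R140Q 4 and lay between 5.27 and 5.66 on the other arrays, and the mean of 8 atrial markers was highest on control 3 and next on R172K 3, at 9.49. R172K 4 stood apart among the R172K arrays, with the highest mean of 8 macrophage markers (9.41, other R172K arrays from 8.23) and of 8 fibroblast markers (10.36, others from 9.63) and the lowest mean of the cardiomyocyte markers. All values below are log2 intensities of the gene named, or differences between groups on that scale, where a difference of 1 is a doubling. They hold within a gene and do not rank genes against each other.

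**Figure D1:**
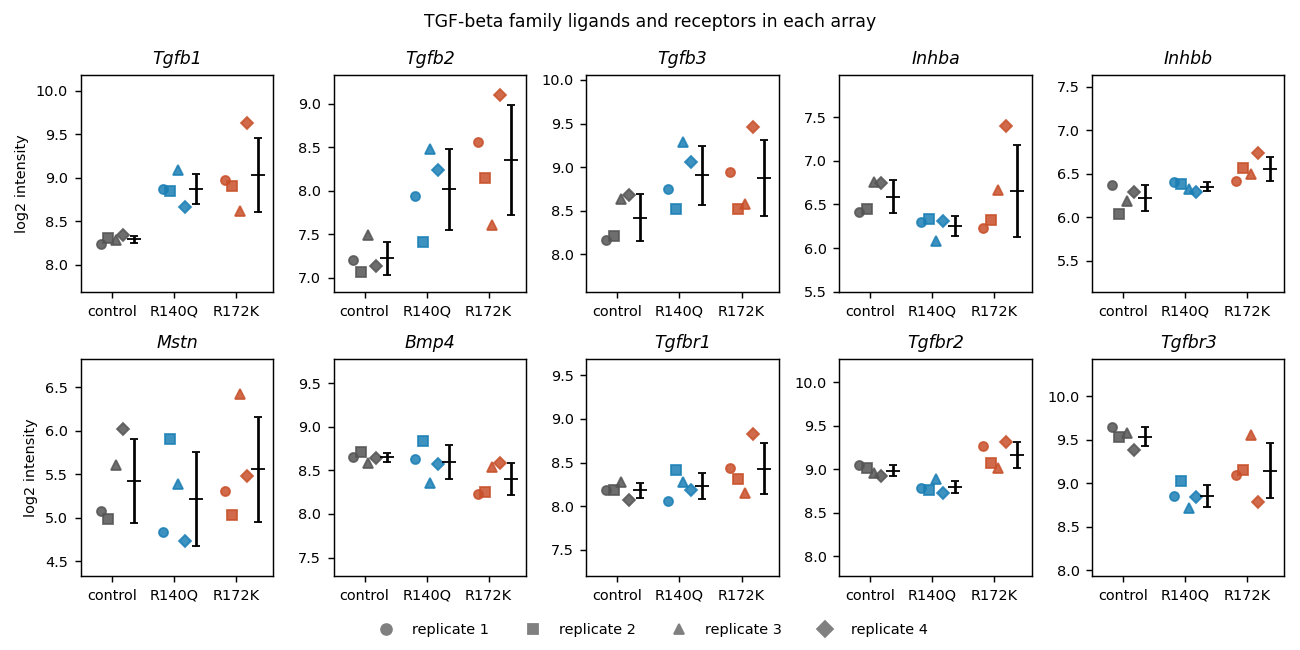
Log2 intensity (vertical axes, each spanning 2.5 units) of the 10 genes in control, R140Q and R172K hearts; symbols mark the replicate number and bars give mean ± SD of 4 arrays. Tgfb1 lay higher in all 8 mutant hearts than in the 4 controls, and Tgfbr3 lay lower in all R140Q hearts and in every R172K heart but R172K 3.

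The TGF-beta ligands Tgfb1 and Tgfb2 rose in R172K hearts, by 1.67-fold and 2.19-fold, and the activin subunit gene Inhbb rose by 1.26-fold. Tgfbr3, the co-receptor betaglycan, fell in R140Q hearts by 0.68 in log2, a level 1.60-fold lower than in control. Tgfbr2, the type II receptor of TGF-beta, was the gene whose level differed between the mutants, 1.30-fold higher in R172K than in R140Q hearts. The other 5 genes passed the test in no comparison. A gene is said to rise or fall when limma's moderated test, adjusted over all 19937 genes by the Benjamini-Hochberg method, gave an adjusted p under 0.05.

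Of the 10 genes, 1 passed in R140Q against control, where 2.20% of all genes tested passed, 3 in R172K against control, where 13.0% passed, and 1 in R172K against R140Q, where 1.48% passed. By direction, 1.12% of all genes were called lower and 1.08% higher in R140Q hearts, 6.23% higher and 6.78% lower in R172K hearts, and 0.487% higher and 0.998% lower in R172K against R140Q. Centring each array on its median moved the split of all called genes from 216 higher and 223 lower to 288 and 185 in R140Q, and from 97 and 199 to 78 and 330 between the mutants, and turned no member's direction. The members' median absolute difference was 0.27 in R140Q and 0.29 in R172K hearts against control, beside 0.09 and 0.11 over all genes. Both values describe the list and were not tested, and the members were not matched with genes of like brightness. Groups did not overlap for 4 of 10 members in R140Q against control, 1 higher and 3 lower (14.8% of all genes, 7.79% higher and 7.04% lower). They did not overlap for 4 in R172K against control, 3 higher and 1 lower (16.2%, 7.47% higher and 8.72% lower), and for 2 in R172K against R140Q, both higher (7.72%, 3.07% higher and 4.64% lower). The R140Q and R172K comparisons share the 4 control arrays, so a gene's difference in 1 mutant is not independent of that in the other.

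**Figure D2:**
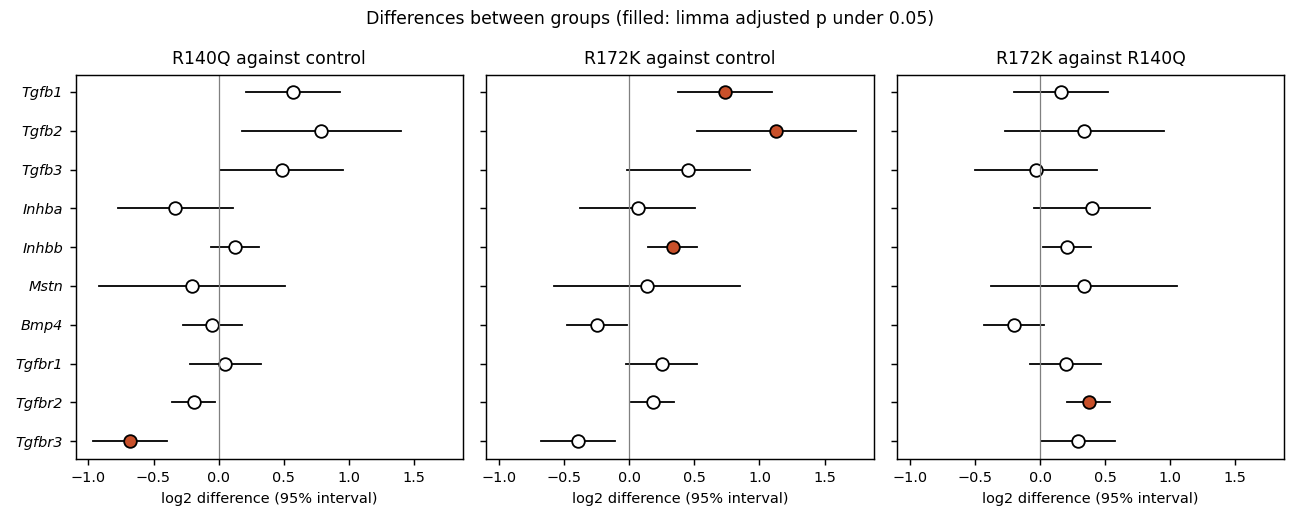
Log2 difference (horizontal axes) of each gene in the 3 comparisons, with limma's 95% interval; filled points passed the test. The filled points are Tgfbr3 in R140Q hearts, Tgfb1, Tgfb2 and Inhbb in R172K hearts, and Tgfbr2 between the mutants.

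Tgfb1 encodes the TGF-beta isoform best known for its part in tissue fibrosis. Its log2 intensity in control hearts 1 to 4 was 8.24, 8.31, 8.29 and 8.34, in R140Q hearts 8.87, 8.84, 9.08 and 8.66, and in R172K hearts 8.97, 8.90, 8.61 and 9.63. Control hearts were close together, and every mutant heart lay above every control heart. In R172K hearts Tgfb1 rose by 0.74 ± 0.17 (SE; limma adjusted p = 0.0142), and it passed whichever array was left out. In R140Q hearts the difference was 0.57 ± 0.17, with an adjusted p of 0.0939 that did not pass. That p was 0.0415 without R172K 3 and 0.0104 without R172K 4, arrays that bear on this comparison solely by way of the pooled variance, and 0.00715 with the control and R140Q arrays alone. The difference between the mutants was 0.16 with a 95% interval from -0.20 to 0.53 (adjusted p = 0.713), and without R172K 4 it was -0.04.

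Tgfb2 encodes an isoform needed for heart valve and septum formation. Control hearts held 7.20, 7.06, 7.49 and 7.14, R140Q hearts 7.93, 7.41, 8.47 and 8.24, and R172K hearts 8.56, 8.14, 7.61 and 9.10. All 4 R172K hearts lay above the controls, while R140Q 2 lay among them. The rise in R172K hearts was 1.13 ± 0.28 (adjusted p = 0.0215). It did not pass without control 1, control 2, control 4 or R172K 1 (adjusted p from 0.0523 to 0.067), although the difference without them stayed between 1.06 and 1.12. R140Q hearts differed by 0.79 ± 0.28 from control (adjusted p = 0.165, or 0.0461 with those 8 arrays alone), and the mutants by 0.34 (95% interval -0.27 to 0.95), or 0.09 without R172K 4 and 0.59 without R172K 3.

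Tgfb3, the third TGF-beta isoform, showed a smaller difference with more spread among controls. It lay at 8.16, 8.21, 8.63 and 8.67 in control, at 8.75, 8.52, 9.29 and 9.06 in R140Q and at 8.94, 8.52, 8.57 and 9.46 in R172K hearts, and both mutant groups overlapped with control. The difference was 0.49 ± 0.22 for R140Q (adjusted p = 0.276) and 0.45 ± 0.22 for R172K (adjusted p = 0.207), and neither passed. Without R172K 4 the R172K difference was 0.26.

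Because Tgfb1, Tgfb2 and Inhbb rose in R172K hearts, the 250 bases before their annotated starts are shown here, from RefSeq on GRCm38.p6, to set the letters of each promoter beside its values. Capitals mark CAGAC, a short element that SMAD proteins can bind, found on either strand. The windows are chr7:25686752-25687001 on the plus strand for Tgfb1, chr1:186705990-186706239 on the minus strand for Tgfb2, at a start inside the annotated gene, and chr1:119422249-119422498 on the minus strand for Inhbb.
Tgfb1: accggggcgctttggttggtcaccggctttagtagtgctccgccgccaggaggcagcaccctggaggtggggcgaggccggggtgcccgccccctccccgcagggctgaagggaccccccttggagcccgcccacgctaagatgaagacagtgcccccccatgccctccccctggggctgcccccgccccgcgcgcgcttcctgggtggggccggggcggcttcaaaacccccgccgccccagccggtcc
Tgfb2: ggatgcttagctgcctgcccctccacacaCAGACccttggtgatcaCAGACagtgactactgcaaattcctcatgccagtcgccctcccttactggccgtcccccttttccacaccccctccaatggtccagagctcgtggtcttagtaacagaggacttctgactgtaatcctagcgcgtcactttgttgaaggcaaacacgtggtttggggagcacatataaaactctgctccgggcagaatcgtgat
Inhbb: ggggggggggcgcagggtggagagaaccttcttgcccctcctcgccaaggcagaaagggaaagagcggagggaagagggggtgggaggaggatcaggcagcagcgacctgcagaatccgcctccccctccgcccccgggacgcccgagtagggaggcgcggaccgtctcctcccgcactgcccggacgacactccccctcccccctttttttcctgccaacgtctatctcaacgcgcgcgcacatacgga
The search took in 50 further bases after the start, so each window held 300 bases. The Tgfb2 window held 2 CAGAC sites, those of Tgfb1 and Inhbb held none, and that of Tgfbr2 held 1. Over all 32851 windows of this length 49.6% held at least 1. The AP-1 motif TGANTCA was in none of the 4 windows and in 7.81% of all, and the E-box CANNTG was in those of Tgfb2 (CACGTG) and Tgfbr2 (CAGCTG) and in 72.3% of all. None of the 3 motifs overlapped another in these windows. G and C made up 77.0% of the Tgfb1 window, 64.3% of the Inhbb window and 54.3% of the Tgfb2 window.

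Inhbb and Inhba encode the beta B and beta A subunits whose dimers are activins. Inhbb lay at 6.38, 6.04, 6.19 and 6.29 in control, 6.40, 6.38, 6.33 and 6.29 in R140Q and 6.42, 6.57, 6.50 and 6.74 in R172K hearts. Each R172K heart lay above every control and every R140Q heart, though the highest control, at 6.38, and the lowest R172K heart, at 6.42, were close. The rise was 0.33 ± 0.09 (adjusted p = 0.0242), and it did not pass without control 2, control 3, R172K 2 or R172K 4 (adjusted p from 0.0569 to 0.074), nor with the control and R172K arrays alone (0.0639). The mean of Inhbb over all arrays was 6.38, below the median of 6.69 over all genes. With no detection calls used, whether Inhbb lay above background is not known here. R140Q hearts differed from control by 0.13 (95% interval -0.06 to 0.31), and R172K from R140Q hearts by 0.21 (adjusted p = 0.249).

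Inhba showed no difference that passed. Control hearts lay at 6.41, 6.45, 6.76 and 6.74, R140Q hearts at 6.29, 6.33, 6.09 and 6.31, and R172K hearts at 6.22, 6.33, 6.67 and 7.40. R140Q hearts lay below all controls (difference -0.33, adjusted p = 0.457). R172K 1 and 2 did so too, while R172K 4 held the highest value of the series, and the R172K difference of 0.07 (adjusted p = 0.885) was -0.18 without that array.

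Bmp4, a bone morphogenetic protein, and Mstn, the muscle growth inhibitor myostatin, did not pass in any comparison. Bmp4 lay between 8.59 and 8.71 in control, between 8.36 and 8.83 in R140Q and between 8.23 and 8.58 in R172K hearts, the last group wholly below control (difference -0.25 ± 0.11, adjusted p = 0.152). With array weights in limma the R172K difference was -0.35 (adjusted p = 0.017). Without R172K 3 and R172K 4 together the difference was -0.41 (adjusted p = 0.0241), with 2 arrays left in that group. Mstn was dim and scattered, from 4.99 to 6.02 in control, 4.74 to 5.91 in R140Q and 5.03 to 6.42 in R172K hearts. Its mean of 5.40 was close to the 5.23 below which the dimmest 25% of genes lay, and no detection calls were used, so whether it lay above background is not known here. Its 95% intervals ran from -0.92 to 0.51 for R140Q and from -0.58 to 0.85 for R172K. The mean of 8 markers of skeletal muscle, where myostatin is best known, lay between 5.71 and 5.98 on all arrays.

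Among the receptors, Tgfbr3 encodes betaglycan, a co-receptor without kinase activity that presents TGF-beta, TGF-beta 2 above all, to the signalling receptors and also binds inhibin. It lay at 9.65, 9.53, 9.58 and 9.39 in control, 8.85, 9.02, 8.72 and 8.84 in R140Q and 9.09, 9.15, 9.55 and 8.79 in R172K hearts. R140Q hearts lay wholly below control, and so did R172K 1, 2 and 4, while R172K 3 lay within the control range. The fall in R140Q hearts was 0.68 ± 0.13 (difference -0.68, limma adjusted p = 0.0229). It did not pass without control 1, 2 or 3 or without R140Q 1, 3 or 4 (adjusted p from 0.051 to 0.0821), with differences from -0.68 to -0.63. R172K hearts differed by -0.39 ± 0.13 (adjusted p = 0.0685), and without R172K 3 by -0.53 (adjusted p = 0.00375). With array weights in limma the R172K difference was -0.41 (adjusted p = 0.00877), and without control 3, R140Q 4 and R172K 3 it was -0.51 (adjusted p = 0.0181). The difference between the mutants, 0.29 with a 95% interval from 0.00 to 0.57, had an adjusted p of 0.297 and was 0.15 without R172K 3.

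Tgfbr2 encodes the type II receptor that binds TGF-beta first and then recruits the type I receptor. It lay at 9.05, 9.02, 8.95 and 8.92 in control, 8.79, 8.76, 8.89 and 8.73 in R140Q and 9.27, 9.07, 9.01 and 9.31 in R172K hearts. R140Q hearts lay below all controls and R172K hearts above all R140Q hearts. The difference from control was -0.19 ± 0.08 for R140Q (adjusted p = 0.212) and 0.18 ± 0.08 for R172K (adjusted p = 0.146, or 0.0449 without R172K 3), and neither passed. Set directly against each other, R172K hearts were higher than R140Q hearts by 0.37 ± 0.08 (adjusted p = 0.0411). This difference did not pass with any 1 array left out other than R172K 3 (adjusted p from 0.0536 to 0.143), nor with the 8 mutant arrays alone (0.125), while its size stayed between 0.33 and 0.42 over all alternatives.

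Tgfbr1, the type I receptor kinase that phosphorylates SMAD2 and SMAD3, did not pass. It lay between 8.07 and 8.28 in control, 8.06 and 8.41 in R140Q and 8.15 and 8.82 in R172K hearts, and the groups overlapped. Its 95% interval ran from -0.22 to 0.32 for R140Q and from -0.02 to 0.52 for R172K, where the difference was 0.25, or 0.12 without R172K 4.

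The SD was larger in R172K than in control hearts for 9 of the 10 genes, the exception being Inhbb. R172K 4 held the highest of all 12 values for 7 of the 10 genes, namely Tgfb1, Tgfb2, Tgfb3, Inhba, Inhbb, Tgfbr1 and Tgfbr2. R172K 3 was closer to the control mean than to the mean of the other R172K hearts for 8 of 10 genes, the exceptions being Inhba and Inhbb. Such counts were not taken over all genes, so they do not show a trait particular to these 10. Relative to the control mean, Tgfb1 was higher by 1.33 in R172K 4 and by 0.32 in R172K 3, and Tgfb2 by 1.88 and 0.38. Marker levels moved alongside: fibroblast markers were higher by 0.81 in R172K 4 and 0.08 in R172K 3, macrophage markers differed by 1.04 in R172K 4 and -0.15 in R172K 3, and cardiomyocyte markers differed by -0.52 and -0.15. Over the groups, the mean of the fibroblast markers ran from 9.36 to 9.79 in control, 9.26 to 9.79 in R140Q and 9.63 to 10.36 in R172K hearts, and that of the endothelial markers from 9.77 to 9.84, 10.07 to 10.16 and 9.93 to 10.13. In R172K hearts, where 13.0% of all genes passed, 3 of 8 fibroblast markers rose, namely Pdgfra, Col1a1 and Col1a2. The last 2 of them also stand in the TGF-beta target list, and the median difference of the 8 was 0.16, with 6 of 8 positive. Also in R172K hearts 2 of 8 endothelial markers rose (Kdr and Esam), 2 of 8 epicardial and mesothelial markers rose (Msln and Aldh1a2, list median 0.35), and 4 of 8 cardiomyocyte markers fell, beside 6.78% of all genes called lower. Of 8 smooth muscle and pericyte markers 2 passed in R172K hearts (25% beside 13.0% of all genes): Rgs5 rose by 0.29 and Abcc9 fell by 1.11. The median of that list was 0.04, with 4 of 8 positive. In R140Q hearts, where 2.20% of all genes passed, 3 of 8 endothelial markers rose. Of 8 macrophage markers none passed in any comparison, where 2.20%, 13.0% and 1.48% of all genes did. All 8 had a positive difference in R172K against control (median 0.27) and in R172K against R140Q (median 0.33). In R140Q against control 6 of 8 were positive (median 0.02). Every fibroblast, endothelial and macrophage marker was brighter than the dimmest 10% of genes. The part of these markers in the members' differences was not tested.

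Marker lists also separated the mutants. The mean of the atrial markers lay between 8.12 and 9.49 in R172K and between 6.52 and 7.42 in R140Q hearts, with controls from 7.39 upward. All 8 atrial markers had a positive difference between the mutants, with a median of 1.24. Of them 1 passed (12.5% beside 1.48% of all genes), the atrial myosin light chain Myl4 (3.52, adjusted p = 0.0458). Myl4 ran from 8.25 to 13.2 in control hearts, overlapping with both mutant groups. Upk3b stands in this list and in the epicardial and mesothelial one. The mean of the epicardial and mesothelial markers lay between 6.94 and 7.20 in R172K and between 6.37 and 6.66 in R140Q hearts (median difference 0.57). Of these 8 markers 1 passed, Upk1b, and of 8 fibroblast markers 1 passed, Pdgfra (12.5% each, beside 1.48% of all genes). Of 8 lung markers 0 had a positive difference in R172K against R140Q (median -0.68), and all 8 did in R140Q against control (median 0.61). None of them passed, where 1.48% and 2.20% of all genes did. Their mean was 7.96 on R140Q 4 and between 5.31 and 5.66 on the other R140Q arrays. These shifts stand beside the differences between the mutants in Tgfbr2 and, further down the pathway lists, in Itgb6 and Bambi, and their part in them was not tested. In bulk tissue, more cells of a type and more RNA per cell cannot be told apart.

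**Figure D3:**
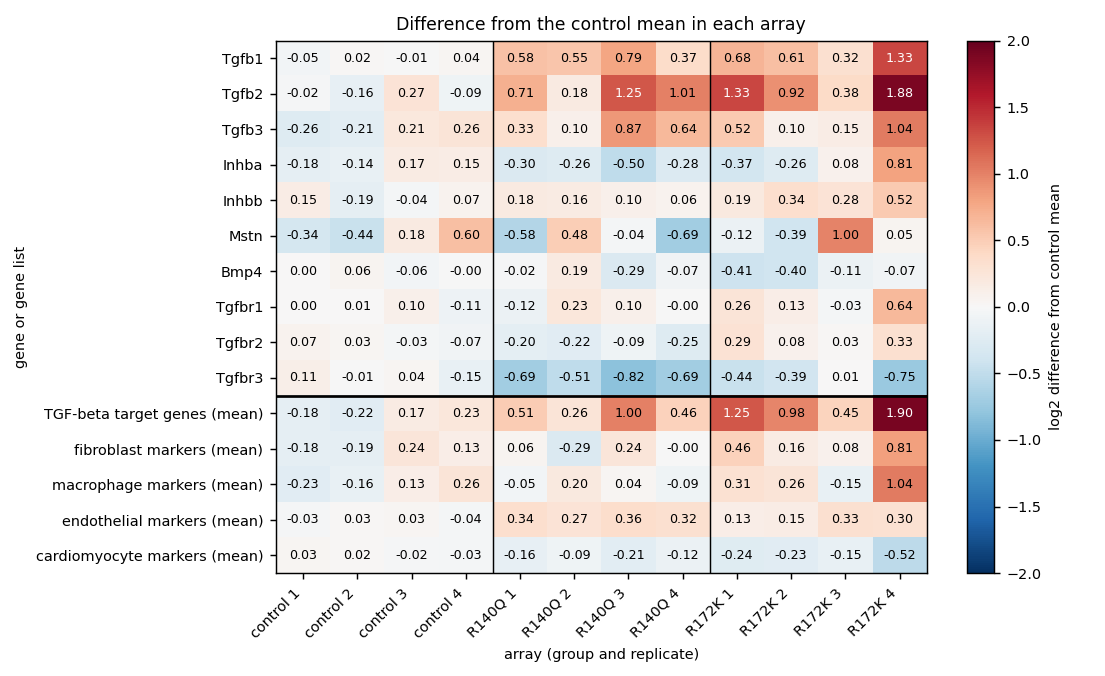
Log2 difference of each array (columns) from the control mean for the 10 genes and, below the line, for the mean of 5 gene lists; red is higher and blue lower. R172K 4 shows the largest values for Tgfb1 (1.33), Tgfb2 (1.88) and the TGF-beta target list (1.90), and R172K 3 the smallest of its group.

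Leaving out R172K 3 and R172K 4 together, an alternative chosen after seeing the data, left Tgfb1 and Tgfb2 called in R172K hearts and ended the call of Inhbb (adjusted p = 0.077), with Tgfbr3 (-0.42, adjusted p = 0.0118) and Bmp4 then passing as well.

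The other genes of the pathway were counted by role, from lists written with earlier results of these data known. In R172K hearts 8 of 19 genes of the latent complex and its activators passed, 42.1% beside 13.0% of all genes, 6 higher and 2 lower, with a list median of 0.45 beside 0.00 over all genes. Ltbp1, a latent TGF-beta binding protein that holds TGF-beta in the matrix, fell by 0.67 (adjusted p = 0.00129), from 8.87 to 8.89 in control hearts to between 8.01 and 8.39. Itgb6, the subunit of the integrin that releases TGF-beta at epithelial surfaces, fell by 2.35 (adjusted p = 0.00142) to between 5.42 and 7.36, where control hearts lay between 8.36 and 8.70. Itgb3, a subunit of another integrin able to bind latent TGF-beta, rose by 0.69, and the membrane metalloproteinase Mmp14 rose by 1.43 (adjusted p = 0.00544). The count was 5 without control 1, control 2, R172K 1 or R172K 4, where 1327 to 1997 of all genes passed. It was 13 without R172K 3, where 4157 of all genes passed, beside 2593 in the fit reported. In R140Q hearts Ltbp1 was the 1 gene of 19 that passed (5.26% beside 2.20%). It fell by 0.44 (adjusted p = 0.0229, or 0.0595 to 0.0731 without control 1, 2 or 3, R140Q 1 or R140Q 3).

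Itgb6 differed between the mutants as well, by -2.07 (adjusted p = 0.0207). R140Q hearts held levels from 8.21 to 8.38. That call did not hold without R140Q 1, R140Q 4, R172K 1 or R172K 2 (adjusted p from 0.0544 to 0.0741). Nor did it hold with the 8 mutant arrays alone (0.0839), with the replicate number as a block (0.0562) or with all probe sets tested (0.0504).

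Of 24 other ligands of the family, Gdf11 passed in R140Q hearts (0.28, adjusted p = 0.0309), and Bmp3 (-0.50, adjusted p = 0.0342) and Gdf6 (1.06, adjusted p = 0.0484) in R172K hearts, which is 4.17% of the list beside 2.20% of all genes and 8.33% beside 13.0%. The list medians were -0.02 and -0.03. Each of these 3 calls was lost when certain single arrays were left out: Gdf11 did not pass without any 1 of control 1 to 3 or R140Q 1 to 4 (up to 0.0897), Bmp3 without control 1, 3 or 4 or R172K 1, 2 or 4 (up to 0.0868), and Gdf6 without any 1 array other than R172K 3 and R172K 4 (up to 0.103). The Gdf6 difference was 0.65 without R172K 4, which lay at 8.22 where the other R172K hearts lay between 6.15 and 6.84.

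Of 15 other receptors and co-receptors, none passed in R140Q hearts (2.20% of all genes) and 1 in R172K hearts (6.67% beside 13.0% of all genes), the BMP co-receptor gene Rgma, which fell by 0.53 (adjusted p = 0.00315). Rgma lay between 8.03 and 8.22 in control and between 7.46 and 7.80 in R172K hearts. Bambi, a decoy receptor without kinase domain that dampens TGF-beta and BMP signals, was lower in R172K than in R140Q hearts by 0.77 (difference -0.77, adjusted p = 0.045). Its levels ran from 7.33 to 7.88 in R172K and from 7.99 to 8.79 in R140Q hearts, with controls between, from 7.87 to 8.03. Without any 1 array other than R140Q 2, R172K 3 and R172K 4 the difference in Bambi did not pass (adjusted p up to 0.144). Without R140Q 4, the array with the highest Bambi level (8.79), the difference was -0.62. Bambi also did not pass with the 8 mutant arrays alone (0.134), with the replicate number as a block (0.0704) or with all probe sets tested (0.0809).

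The extracellular antagonists went both ways in R172K hearts. Of 21, 3 rose and 2 fell (23.8% beside 13.0% of all genes; list median -0.05). Wfikkn2, a secreted inhibitor of myostatin and Gdf11, fell by 0.72 in R172K (adjusted p = 0.00542) and by 0.74 in R140Q hearts (adjusted p = 0.0168), from 6.14 to 6.62 in control to between 5.50 and 5.82 and between 5.32 and 5.81. It was the 1 antagonist of 21 that passed in R140Q hearts (4.76% beside 2.20% of all genes), and did not pass there without control 1 (0.0611) or control 2 (0.0556). Fstl1, a follistatin-like glycoprotein, rose by 1.65 in R172K hearts (adjusted p = 0.0128), the matrix proteoglycan biglycan (Bgn) rose by 0.88, and the serine protease Htra1 fell by 0.62. The last 2 did not pass without certain single arrays, Bgn without control 1, control 2, R172K 1 or R172K 4 (up to 0.0752) and Htra1 without control 3, control 4 or any 1 of R172K 1, 2 and 4 (up to 0.068). The count of 5 became 2 without R172K 1 or R172K 4, and 3 without any 1 control array or R172K 2. Over those fits 1327 to 1997 of all genes passed, beside 2593 in the fit reported.

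Of 20 SMAD genes and regulators, Smad1, a SMAD of the BMP branch, rose in both mutants, by 0.37 in R140Q (adjusted p = 0.0217) and by 0.41 in R172K hearts (adjusted p = 0.0041). Control hearts lay between 7.34 and 7.48, R140Q hearts between 7.66 and 7.87 and R172K hearts between 7.74 and 7.96. The R140Q call did not hold without control 1, control 2, R140Q 1 or R140Q 3 (adjusted p from 0.0613 to 0.0722) or with the replicate number as a block (0.0674), while the R172K call held throughout. Smurf1, a ubiquitin ligase that acts on SMADs and receptors, rose by 0.50 in R172K hearts (adjusted p = 0.0268; up to 0.0845 with an array left out, and it failed without control 1, 2 or 3 or R172K 1, 2 or 4). With 2 of 20 passing in R172K (10% beside 13.0%) and 1 of 20 in R140Q hearts (5% beside 2.20%), the list was close to the share of all genes. The R172K count of SMAD genes was 6 without R172K 3, where 4157 of all genes passed in place of 2593.

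Known targets of TGF-beta were mostly higher in R172K hearts. Of 21 measured, 12 rose and none fell (57.1% beside 13.0% of all genes), with a median difference of 1.07 and 19 of 21 positive. Smad7, Skil and Pmepa1, which stand in this list and in the list of SMAD genes and regulators, did not pass in R172K hearts. The protease inhibitor Timp1 rose by 3.57 (adjusted p = 0.00442), the collagen crosslinker Lox by 3.36 and the matrix protein periostin (Postn) by 2.68, and the collagen gene Col1a1 rose by 1.48 (adjusted p = 0.0134), from between 8.27 and 8.71 in control hearts to 9.23 or more in every R172K heart. The count was 7 without control 1, 5 without control 2 and 7 without R172K 1, where 1559, 1480 and 1327 of all genes passed in place of 2593. In R140Q hearts none of the 21 passed by limma, where 2.20% of all genes did, although 19 had a positive difference and the median was 0.58. With array weights, or without R172K 3 and R172K 4 together, 4 of the 21 passed in R140Q hearts. With the control and R140Q arrays alone or without R140Q 2, 2 did, and 1 without R172K 3. Over those fits 443 to 1677 of all genes passed, beside 439 in the fit reported. The matrix genes of this list were known from earlier results to be high in R172K hearts, so the count is not independent evidence. Of 13 BMP target genes none passed in either mutant by limma against control, where 2.20% of all genes passed in R140Q and 13.0% in R172K hearts. In a list of 13 a count of 0 is close to those shares. Array weights gave 1 in R140Q and 2 in R172K hearts, where 1651 and 4491 of all genes passed. The medians were 0.11 and -0.04. In R140Q hearts 1 passed with the control and R140Q arrays alone, or without R140Q 2, R172K 3 or R172K 4. Between the mutants 1 of the 13 passed, Bambi (7.69% beside 1.48% of all genes).

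**Figure D4:**
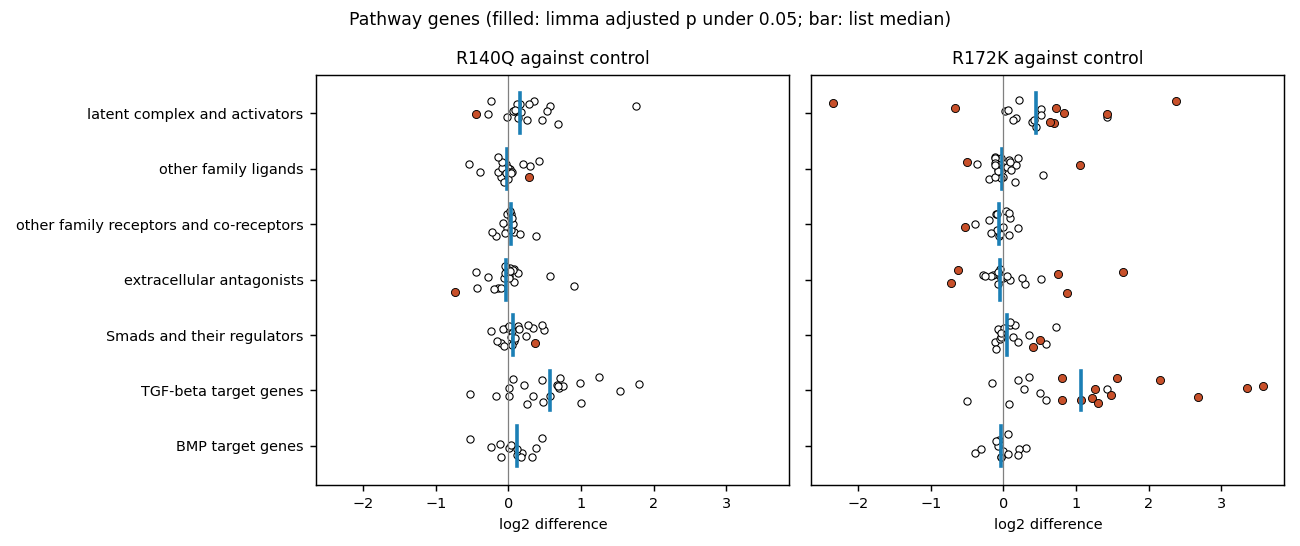
Log2 difference from control (horizontal axes) of the measured genes of 7 pathway lists in R140Q and R172K hearts; each point is a gene, filled where it passed the test, and the bar is the list median. In R172K hearts, where 13.0% of all genes passed, the TGF-beta target list has 12 filled points, all higher. The BMP target list, of 13 genes, has none.

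For each of the 5 genes that passed in some comparison, the 3 named genes with the most similar values over the 12 arrays were found by Pearson's r, given as a description because they were picked as the highest among all genes. Tgfb1 was most like Cfl1, the actin-severing protein cofilin (r = 0.99), the ETS factor Elk3 (0.98) and the matrix protein Sparc (0.97). Tgfb2 was most like Septin11, the adhesion protein gene Svep1 and Bicc1, each at 0.97. Within groups, after each group's mean was taken off, these 6 kept r between 0.93 and 0.98. Tgfbr3 was most like Nhsl1 (0.97), the leukemia inhibitory factor receptor Lifr (0.97) and the kinase gene Rps6ka5 (0.96), with 0.94 to 0.96 within groups. Inhbb followed Tafa1 (0.95), the cation channel Trpc6 (0.90) and Ptk7 (0.87), and Tgfbr2 followed Mtf2 (0.92), Pld3 (0.91) and Haus7 (0.91), with lower values within groups, from 0.68 to 0.93 for Inhbb and from 0.78 to 0.83 for Tgfbr2. All of these values come from the same 12 arrays, among them R172K 4, which holds the highest level of Tgfb1, Tgfb2, Inhbb and Tgfbr2.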

How the data were processed

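RNA of 12 heart samples was measured on Affymetrix arrays, 4 per group. The deposited table gives an intensity per probe set and array, which the authors made by RMA, as the submitters' processing notes name it; its version is not given. The scale was taken as linear from its values, up to 17591, and log2 was taken with no pseudocount. RMA usually includes quantile normalization, which hides a shift common to most genes. Of 34760 probe sets, 21640 carried 1 gene symbol, 1321 several and 11799 none in the annotation used. The first gave 19937 genes, the brightest probe set standing for a gene.

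Group means were fitted over all 12 arrays with limma 3.58.1 (lmFit, eBayes, two-sided) in R 4.3.3, with 9 residual and 3.54 prior degrees of freedom. Benjamini-Hochberg adjustment ran over all genes, at 0.05. The number of arrays limits the precision. The fit was tested on simulated data with the same spread in every group. That test does not show how the fit behaves with the larger spread of the R172K hearts. Named are all 10 members, up to 4 called genes of each pathway list and comparison with the smallest p, and the 3 genes most like each called member; any others were named after their values were seen. Members and lists were chosen with earlier results of these data known. Promoter letters came from RefSeq (GRCm38.p6), which held 8 of the 10 members and 4 of the 5 that passed. Alternatives covered which groups were fitted, a replicate block, probe set choice, dim genes, scaling, variance model, array weights, a pseudocount of 16, each array left out, and control 3, R140Q 4 and R172K 3 (high atrial or lung markers) left out together.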

Additional observations from a re-analysis of the deposited data

Results flagged for a closer look

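In 3 results 1 array stood out against the other 3 of its group, with a gap to the nearest that was large for the group's whole range. Inhba lay at 6.09 in R140Q 3, with the next R140Q heart at 6.29. Rgma lay at 8.03 in control 3, with the next control heart at 8.19. Lox lay at 8.20 in R140Q 3, with the next R140Q heart at 6.88. In all 87 sets of 4 arrays were looked at, and chance alone gives about 1 in 20. A count of 3 is no more than that.

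The R172K and R140Q hearts differed by the test of the difference itself in Tgfbr2 (0.37), Itgb6 (-2.07) and Bambi (-0.77). Tgfbr2 lay below control in R140Q and above it in R172K hearts, neither difference passing the test.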

How the results depend on the processing

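The count of members that passed moved with the arrays. In R140Q against control it was 1, ranging from 0 to 2 with an array left out, where 100 to 1015 of all genes passed. It was 3 with only the 2 groups compared, with array weights, or without R172K 3 and R172K 4 together, the last chosen after seeing the data. In those fits 1342, 1651 and 1677 of all genes passed, beside 439 in the fit reported. In R172K against control it was 3, from 1 to 5 with an array left out (1 without control 2, 5 without R172K 3), and 5 with array weights. The genes that passed among all 19937 numbered 1480 without control 2, 4157 without R172K 3 and 4491 with array weights, beside 2593. In R172K against R140Q it was 1, from 0 to 1 with an array left out, where 1 to 1577 of all genes passed. It was 0 with the 2 groups alone, with the replicate block or with all probe sets tested. In those fits only 9 and 11 of all genes and 5 of all probe sets passed, beside 296 genes in the fit reported. The replicate block gave 1 in R140Q and 2 in R172K hearts, where Inhbb then had an adjusted p of 0.0503; it left 196, 2014 and 11 of all genes called in the 3 comparisons.

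Replicate numbers are shared by the groups but did not pair the samples: same-numbered arrays' deviations from group means correlated between -0.34 and 0.15, and other pairs between -0.21 and 0.28.

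No member's direction turned under array centring or quantile normalization. The differences whose direction turned passed in no setting. Inhba in R172K hearts was -0.17 with array weights, -0.18 (without R172K 4) to 0.21 with an array left out and -0.31 without R172K 3 and 4. Mstn was 0.014 for R140Q without control 3, R140Q 4 and R172K 3, and for R172K -0.046 with array weights, -0.094 without those 3 arrays, -0.26 without R172K 3 and 4, and -0.15 to 0.33 with an array left out; between the mutants it was -0.11 and -0.050 without those sets. Tgfb3 between the mutants was 0.12 without the 3 arrays and -0.23 to 0.10 with an array left out. With an array left out, Tgfb1 between the mutants ranged from -0.036 to 0.30, Bmp4 in R140Q hearts from -0.13 to 0.033, and Tgfbr1 in R140Q hearts from -0.0074 to 0.11. The cause was not tested.

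Over the alternatives 100 to 1677 genes passed in R140Q (439 in the fit reported), 1327 to 4491 in R172K (2593) and 1 to 1774 between the mutants (296).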
